A study of Mus musculus with 17 samples.

Results

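Efferocytosis, the clearance of dying cells by phagocytes, was followed through 10 genes in the mouse heart 5 days after myocardial infarction (MI). They were taken by name for their role, with earlier results of these data known. They comprise the TAM receptors Mertk, Axl and Tyro3 and the bridging molecules Gas6, Pros1 and Mfge8. The others are the scavenger receptors Stab1, Lrp1 and Msr1 and the engulfment adaptor Elmo1. Each of the 10 had a feature of its own among the 31647 features of the count table. Transcripts were counted by massive analysis of cDNA ends (MACE), which reads the 3' end of polyadenylated RNA and gives each molecule an identifier. The animals were male wild-type C57BL/6J mice of 8 to 11 weeks. In 9 mice the LAD (left anterior descending artery) was tied off permanently and the infarct zone (IZ) was dissected 5 days later, and the 8 controls had sham surgery without ligation and gave left ventricular tissue. The occluded vessel was not reopened, and the IZ was a dissected region whereas the controls gave ventricle.

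Dying cells expose phosphatidylserine on their outer membrane. GAS6 and protein S, the product of Pros1, are vitamin K-dependent proteins that bind this lipid and the TAM receptor tyrosine kinases at the same time, and MFGE8 links it to integrins. Stabilin-1 binds phosphatidylserine directly, LRP1 takes up many ligands and recognises calreticulin on dying cells, and MSR1 is the class A macrophage scavenger receptor. ELMO1 works with DOCK proteins to activate RAC, which drives the membrane around the prey. In the infarcted heart macrophages clear dead cardiomyocytes and neutrophils by these routes.

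Levels are given as CPM, counts relative to the library size after scaling by the trimmed mean of M values (TMM). Since each transcript gives 1 tag, levels were not divided by transcript length. Total counts ran from 1820809 to 4257919 per sham library and from 1237675 to 4738307 per IZ library. The labelled tissue was checked with 5 cardiomyocyte markers, whose summed level was 35860 to 44660 CPM in sham and 2080 to 4851 CPM in IZ replicates 2 to 9. Infarct zone replicate 1 stood apart with 18160 CPM of these markers and with 19.5% of its counts from mitochondrially encoded genes, against 4.22 to 6.78% in the other IZ libraries and 22.9 to 32.4% in sham. It was kept, and values without it are given for some genes only. All 10 genes were also called higher with it left out. In tissue RNA, fewer cells of a type and less RNA per cell cannot be told apart.

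The promoters of 5 genes that were all called higher in the IZ are shown, as the 250 bases before the RefSeq transcription start (GRCm38.p6), 5' to 3' on the strand of the gene. They are Mertk (chr2:128698665-128698914, plus strand), Axl (chr7:25788734-25788983, minus strand), the ligand genes Gas6 (chr8:13494536-13494785, minus strand) and Pros1 (chr16:62854057-62854306, plus strand), and Stab1 (chr14:31168642-31168891, minus strand), which is shown because it lacks the motif that the others share. Capitals mark the Sp1 motif GGGCGG and the PU.1 motif GAGGAAG on either strand, and adjoining or overlapping matches run together.
Mertk: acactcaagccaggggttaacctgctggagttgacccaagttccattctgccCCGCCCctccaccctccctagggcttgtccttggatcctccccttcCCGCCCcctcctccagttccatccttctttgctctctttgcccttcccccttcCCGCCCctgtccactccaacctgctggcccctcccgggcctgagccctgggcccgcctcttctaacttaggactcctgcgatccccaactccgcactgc
Axl: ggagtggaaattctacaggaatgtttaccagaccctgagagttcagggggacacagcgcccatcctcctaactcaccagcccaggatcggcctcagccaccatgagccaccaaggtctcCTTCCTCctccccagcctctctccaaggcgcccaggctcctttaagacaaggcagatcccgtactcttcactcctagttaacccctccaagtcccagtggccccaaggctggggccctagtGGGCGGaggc
Gas6: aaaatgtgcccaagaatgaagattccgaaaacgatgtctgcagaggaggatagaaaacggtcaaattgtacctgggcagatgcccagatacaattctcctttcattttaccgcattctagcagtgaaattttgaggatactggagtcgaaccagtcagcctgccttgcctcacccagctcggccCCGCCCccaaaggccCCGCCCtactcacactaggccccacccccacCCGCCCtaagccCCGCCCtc
Pros1: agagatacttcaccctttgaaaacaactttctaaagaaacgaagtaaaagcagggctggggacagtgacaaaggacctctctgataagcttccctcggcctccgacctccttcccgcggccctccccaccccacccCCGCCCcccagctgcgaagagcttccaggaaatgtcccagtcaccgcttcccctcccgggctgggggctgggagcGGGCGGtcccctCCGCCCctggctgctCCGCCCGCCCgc
Stab1: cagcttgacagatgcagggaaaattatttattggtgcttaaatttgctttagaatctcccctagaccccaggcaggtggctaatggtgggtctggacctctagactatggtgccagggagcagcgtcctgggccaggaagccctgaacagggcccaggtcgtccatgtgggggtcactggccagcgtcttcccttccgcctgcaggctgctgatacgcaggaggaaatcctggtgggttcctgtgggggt

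A promoter was listed for 9 of the 10 genes, all but Msr1. Of the 9, 8 held GGGCGG, which 32.7% of the 32851 listed mouse promoters hold, and Stab1 did not. Pros1 had 5 matches, Gas6 4, Mertk 3 and Axl 1. GAGGAAG, the core sequence of the myeloid factor PU.1, was found in Axl alone, 131 bases before the start, against 10.6% of all promoters. The AP-1 motif TGANTCA was in none of the 9 and in 6.75% of all promoters, and the TATA motif TATAAA was in Elmo1 alone and in 12.4% of all. The E-box CANNTG, present in 66.2% of all promoters, occurred in Gas6, Pros1, Mfge8, Stab1 and Elmo1. The shown promoters were 63.6% G and C in Mertk, 60.0% in Axl, 54.8% in Gas6, 64.4% in Pros1 and 57.2% in Stab1, against a median of 52.4% over all. These matches describe the sequence only, and occupancy was not measured.

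All 10 genes were called higher in the IZ than in sham, and none was called lower. The calls are those of edgeR's quasi-likelihood test at a Benjamini-Hochberg adjusted p below 0.05 over 12301 genes. In the same test 69.5% of all tested genes were called in either direction, 36.3% higher and 33.1% lower. Of the 10, 8 were at least 2-fold higher, as were 19.3% of tested genes, and 6 had every IZ library above every sham library, as did 16.6% of tested genes. The median log2 fold change of the 10 genes was 1.56, against 0.05 over all tested genes. Each gene kept its call in every alternative that tested it. Gene positions are those of GENCODE on GRCm38.

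**Figure D1:**
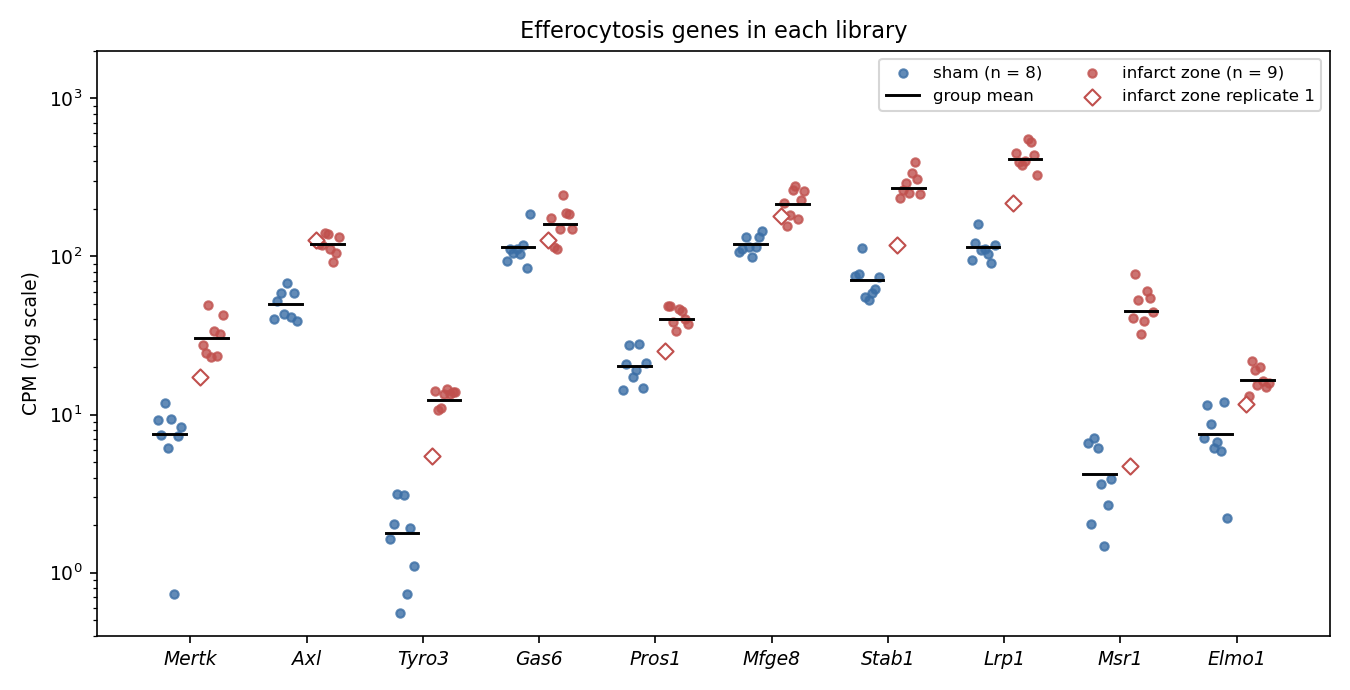
CPM of each gene in every library on a log axis, with sham in blue (n = 8), IZ in red (n = 9), IZ replicate 1 as an open diamond and bars for the group means. The groups separate fully for Mertk, Axl, Tyro3, Mfge8, Stab1 and Lrp1, whereas Gas6 overlaps widely.

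The TAM receptors rose without overlap between the groups. Mertk (ENSMUSG00000014361, chr2:128698956-128802894, plus strand), the TAM receptor known for efferocytosis by macrophages, had a lowest, median and highest level of 0.735, 7.90 and 11.9 CPM in sham and of 17.4, 27.6 and 49.5 CPM in the IZ. The sham libraries held only 1 to 19 counts of it, and the low extreme was sham replicate 6 with a single count. The means were 7.56 ± 3.25 (SD, n = 8) and 30.5 ± 10.3 CPM (SD, n = 9), a log2 fold change of 2.01 ± 0.26 (SE; edgeR, adjusted p = 3.06e-07).

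Axl (ENSMUSG00000002602, chr7:25757273-25788705, minus strand), the TAM receptor that relies on GAS6 as its ligand, ranged from 38.9 CPM through a median of 47.9 to 67.8 CPM in sham and from 91.7 through 119 to 140.4 CPM in the IZ. It was the most even of the 10 genes in the IZ, with a coefficient of variation of 13.2%. The log2 fold change was 1.26 ± 0.13 (SE; edgeR, adjusted p = 7.89e-09). Replicate 1 lay amid the other IZ libraries for this gene, unlike for the other TAM receptors.

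Tyro3 (ENSMUSG00000027298, chr2:119797733-119818104, plus strand), the TAM receptor best known from the nervous system, was near the detection limit in sham, with 1 to 6 counts per library. It passed the filter on low counts only through the IZ. Its sham levels were 0.558, 1.78 and 3.17 CPM (lowest, median, highest), and those of the IZ were 5.44, 13.6 and 14.5 CPM. Replicate 1 was the low extreme and the other 8 IZ libraries lay between 10.7 and 14.5 CPM. Tyro3 had the highest fold change of the receptor trio, 2.75 ± 0.28 on the log2 scale (SE; edgeR, adjusted p = 1.08e-08).

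The bridging molecules rose by 0.49 to 1.02 on the log2 scale, and Gas6 and Mfge8 were, with Lrp1, the most abundant of the 10 transcripts in sham. Gas6 (ENSMUSG00000031451, chr8:13465374-13494490, minus strand), a ligand of all TAM receptors, had sham levels of 84.7, 108 and 187 CPM (lowest, median, highest) and IZ levels of 111.5, 150.1 and 246 CPM. Only 2 of 9 IZ libraries exceeded every sham library, and sham replicate 8 was above most of the IZ. The log2 fold change was 0.49 ± 0.17 (SE; edgeR, adjusted p = 0.0118), the smallest of the 10, and its adjusted p lay between 4.08e-08 and 0.0314 over 26 alternatives.

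Pros1 (ENSMUSG00000022912, chr16:62854307-62929346, plus strand), which encodes protein S, an anticoagulant and a ligand of MERTK and TYRO3, had levels of 14.2, 20.1 and 27.9 CPM in sham and of 25.4, 40.3 and 49.0 CPM in the IZ. The groups overlapped by replicate 1 of the IZ alone. Its log2 fold change was 1.02 ± 0.16 (SE; edgeR, adjusted p = 4.31e-06).

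Mfge8 (ENSMUSG00000030605, chr7:79133768-79149060, minus strand), a milk fat globule protein that ties phosphatidylserine to integrins, went from 99.9, 115 and 144 CPM in sham to 156, 218 and 279 CPM in the IZ. All IZ libraries lay above all sham libraries, although the change stayed under 2-fold. The log2 fold change was 0.85 ± 0.13 (SE; edgeR, adjusted p = 4.91e-06).

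The scavenger receptors included the most abundant transcript of the IZ set and the one with the largest fold change. Lrp1 (ENSMUSG00000040249, chr10:127538161-127621148, minus strand), a large endocytic receptor, had 90.9, 111 and 159.9 CPM in sham and 219, 402 and 556 CPM in the IZ, with a log2 fold change of 1.85 ± 0.16 (SE; edgeR, adjusted p = 1.08e-09). Stab1 (ENSMUSG00000042286, chr14:31139013-31168641, minus strand), the stabilin-1 gene of macrophages and sinusoidal endothelium, had 52.8, 67.9 and 113 CPM in sham and 117, 263 and 394 CPM in the IZ, a log2 fold change of 1.94 ± 0.19 (SE; edgeR, adjusted p = 6.58e-09). For both genes the highest sham library was replicate 3 and the lowest IZ library was replicate 1, which still exceeded it.

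Msr1 (ENSMUSG00000025044, chr8:39581685-39642673, minus strand), which marks macrophages that take up modified lipoproteins, was nearly absent from sham with 2 to 12 counts per library. It had 1.47, 3.76 and 7.13 CPM in sham and 4.71, 44.6 and 77.9 CPM in the IZ. The groups overlapped through replicate 1, with 13 counts, whereas the other 8 IZ libraries lay at 32.3 CPM or more. The log2 fold change was 3.44 ± 0.39 (SE; edgeR, adjusted p = 5.06e-08), a 10.9-fold rise. The IZ mean was 45.3 ± 20.4 CPM (SD, n = 9) with replicate 1 and 50.4 ± 14.5 CPM (SD) without it.

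Elmo1 (ENSMUSG00000041112, chr13:20090596-20608353, plus strand), the adaptor of the engulfment step, had sham levels of 2.22, 6.92 and 11.9 CPM and IZ levels of 11.6, 15.9 and 21.9 CPM. Replicate 1 alone fell within the sham range, and the sham libraries held only 4 to 31 counts of Elmo1. Its log2 fold change was 1.12 ± 0.22 (SE; edgeR, adjusted p = 9.83e-05). Over all 17 libraries an antisense gene inside Elmo1, Gm32036, had 162 counts against 652 for Elmo1, and Nt5dc2, which overlaps the 3' end of Stab1 on the opposite strand, had 1381 against 9482. The use of strand in counting single genes was not given in the sources used here, so reads of such overlaps may not be told apart.

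**Figure D2:**
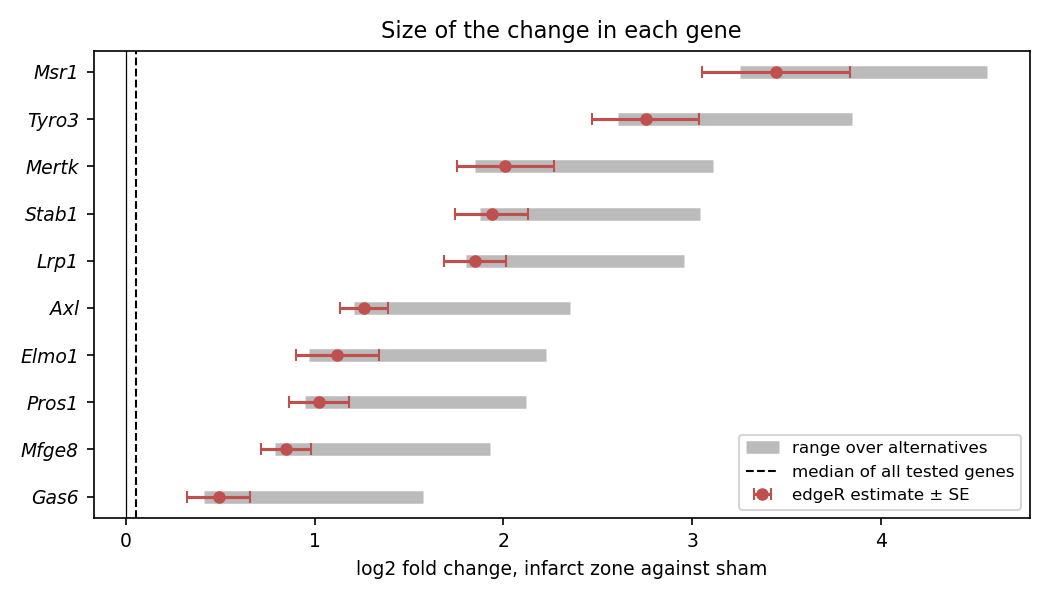
Log2 fold change of each gene, IZ against sham, with points and bars for the edgeR estimate and its SE (8 sham, 9 IZ libraries), grey bars for the lowest to highest value over the alternatives and a dashed line for the median of all tested genes (0.05). Msr1 (3.44) and Tyro3 (2.75) lead and Gas6 (0.49) is lowest, and the upper end of each grey bar is the scaling by total counts alone.

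The order of the levels differed between the groups. In sham Mfge8 (119.7 CPM), Gas6 (114 CPM) and Lrp1 (114.0 CPM) led and did not differ beyond their SD, followed by Stab1, Axl, Pros1, Mertk, Elmo1, Msr1 and Tyro3, where Mertk (7.56 CPM) and Elmo1 (7.53 CPM) were again not apart. In the IZ Lrp1 led with 411 CPM in all 9 libraries, ahead of Stab1 (272 CPM), Mfge8 (215.5 CPM), Gas6 (161 CPM), Axl (121 CPM), Msr1 (45.3 CPM), Pros1 (40.5 CPM), Mertk (30.5 CPM), Elmo1 (16.5 CPM) and Tyro3 (12.3 CPM). Among these neighbours Stab1 and Mfge8, Gas6 and Axl, Msr1 and Pros1, and Pros1 and Mertk did not differ beyond their SD. Msr1 thus stood below Elmo1 in sham and above Pros1, Mertk and Elmo1 in the IZ by mean level.

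The make-up of the TAM receptor counts was compared within libraries, which needs no scaling. Axl supplied 84.7 ± 5.70% of them in sham (SD, n = 8) and 73.9 ± 5.34% in the IZ (SD, n = 9), Mertk 12.5 ± 5.17% and 18.4 ± 4.37%, and Tyro3 2.83 ± 1.07% and 7.65 ± 2.10%. Axl remained the main TAM transcript in every library, between 69.5 and 96.6% of the counts. The TAM receptors together had 46.9 ± 16.1 counts per 100 counts of Gas6 and Pros1 in sham (SD, n = 8) and 85.7 ± 25.7 in the IZ (SD, n = 9).

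**Figure D3:**
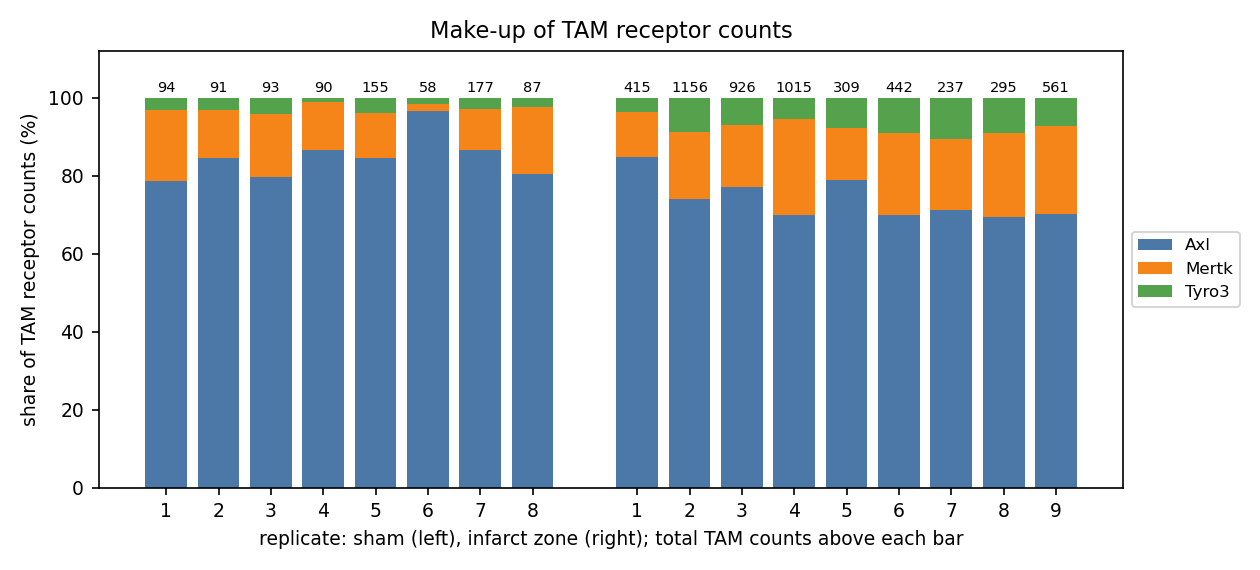
Share of Axl, Mertk and Tyro3 in the TAM receptor counts of each library in percent, with the total TAM counts above each bar. Axl is the largest part everywhere, and the shares of Mertk and Tyro3 are larger in most IZ libraries (means of 18.4% and 7.65%) than in sham (12.5% and 2.83%).

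Ratios within a library tested which members moved apart, by exact two-sided permutation over all 24310 assignments of the 17 libraries, adjusted over 27 ratios. Axl fell relative to Tyro3, with a log2 ratio of 4.73 ± 0.54 (SD, n = 8) in sham and 3.31 ± 0.53 (SD, n = 9) in the IZ (difference -1.42, exact permutation adjusted p = 6.48e-04), and 8 of 9 IZ libraries lay below every sham library. Its log2 ratio to Mertk changed from 2.89 to 2.03 (difference -0.85, exact permutation adjusted p = 0.0189). That difference was -0.52 without sham replicate 6, the library with 1 Mertk count, and remained past the threshold. Mertk and Tyro3 were not shown to move apart (difference -0.56, exact permutation adjusted p = 0.136), but without sham replicate 6 the difference was -0.83 with an adjusted p of 0.00841 by the same exact permutation.

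Among the ligands Gas6 fell relative to Pros1, with log2 ratios of 2.47 ± 0.38 (SD, n = 8) and 1.97 ± 0.38 (SD, n = 9), a difference of -0.50 (exact permutation adjusted p = 0.0189). The ratio of Mfge8 to Gas6 rose by 0.34 at the threshold (exact permutation adjusted p = 0.0499), and lost its call when any of 13 of the 17 libraries was left out. It held without sham replicates 3 or 7 or IZ replicates 6 or 7. Among the scavenger receptors Msr1 rose relative to Stab1, with log2 ratios of -4.11 ± 0.69 (SD, n = 8) and -2.78 ± 0.78 (SD, n = 9) and a difference of 1.33 (exact permutation adjusted p = 0.00555), 8 of 9 IZ libraries lying above every sham library and replicate 1 within the sham range. Lrp1 and Mertk were not shown to move apart, with a difference of -0.31 (exact permutation adjusted p = 0.593).

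Markers of macrophages, fibroblasts and neutrophils rose in the same libraries. The 6 macrophage markers were all called higher, and their summed level was 273.5 to 422 CPM in sham and 1590 to 4574 CPM in the IZ, with replicate 1 the lowest of the latter and the others at 2912 CPM or more. None of them was at 0 throughout either group. Among 4 tested markers of resident cardiac macrophages none rose and 3 fell, and their sum was 54.7 to 77.6 CPM in sham and 20.3 to 63.1 CPM in the IZ. Of the 5 fibroblast markers 4 rose (957 to 1697 CPM and 4990 to 8488 CPM), the 3 tested neutrophil markers rose (4.44 to 12.3 CPM and 14.9 to 210.4 CPM), and 2 of 5 endothelial markers (357 to 675 CPM and 254 to 423 CPM) and 3 of 5 mural markers (327 to 575 CPM and 143 to 371 CPM) fell. Lymphocyte and adipocyte markers were too low to test, at 10.5 and 41.6 CPM or less in sum. The falls of resident macrophage, endothelial and mural markers are those under TMM scaling. Under total counts alone the resident marker Cd163 had a log2 fold change of 0.0020 (edgeR, adjusted p = 0.995). The other markers that fell were not compared across scalings. The part of all these cell types in the changes of the 10 genes was not tested.

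Relative to the summed macrophage markers of the same library, 9 of the 10 genes fell, as did 95.1% of all tested genes when the same ratio was adjusted over all of them, so that the count says nothing particular about the 10. Their median log2 difference was -1.77, against -3.27 over all tested genes, while the macrophage sum itself rose from a mean of 324 to 3314 CPM. Among the ligands the ratios fell with log2 differences of -2.83 for Gas6, -2.49 for Mfge8 and -2.32 for Pros1 (exact permutation adjusted p = 1.39e-04 each, resting on 4.11e-05, the smallest p this design can give). Elmo1 fell by 2.12 and Lrp1 by 1.49 with the same exact permutation p. Axl fell by 2.04 and Stab1 by 1.41 (exact permutation adjusted p = 2.02e-04), and for these 7 genes all 9 IZ libraries lay below every sham library, as for 86.9% of all tested genes.

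Mertk had a difference of -1.19 (exact permutation adjusted p = 0.00868), and the groups overlapped. Tyro3 fell by 0.62 (exact permutation adjusted p = 0.0268), a call that was lost without sham replicate 3 (-0.55) or 5 (-0.50), with a pseudocount of 0.1 (-0.41) and without Lyz2 (-0.41), which alone made up 82.7% of the macrophage sum in the IZ. For Msr1 no difference was shown, with log2 ratios of -6.33 ± 0.64 (SD, n = 8) and -6.41 ± 0.83 (SD, n = 9, difference -0.08, exact permutation adjusted p = 0.845). Replicate 1 of the IZ was the low extreme of the Msr1 ratio at -8.35.

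**Figure D4:**
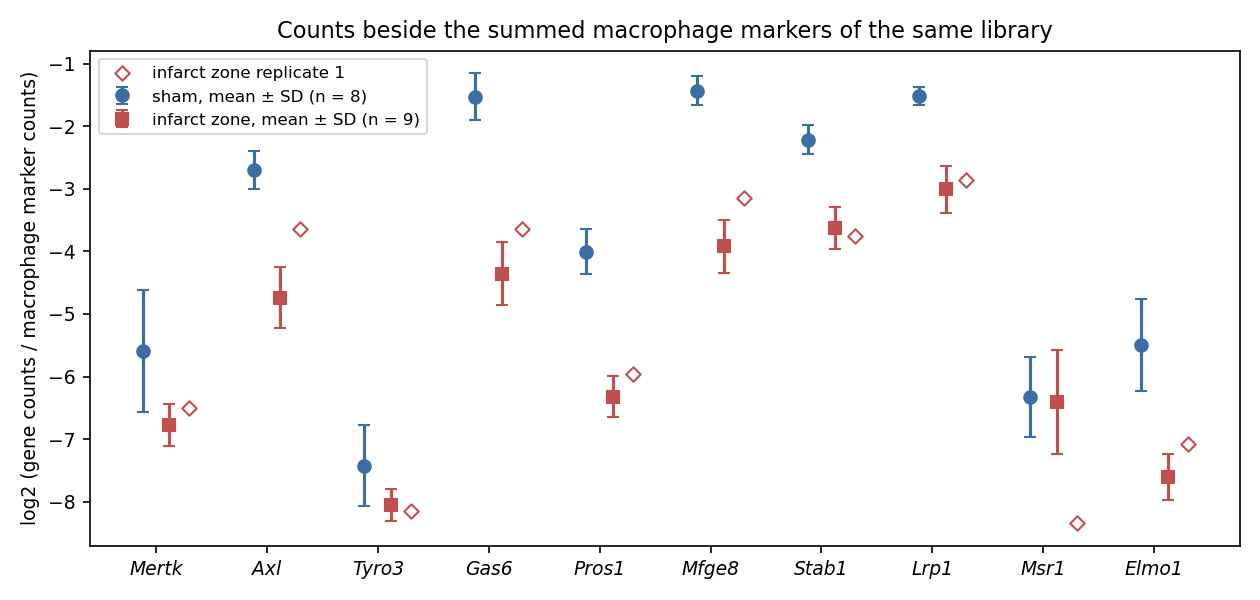
Log2 ratio of the counts of each gene to the summed counts of 6 macrophage markers in the same library, as mean ± SD for sham (blue circles, n = 8) and IZ (red squares, n = 9), with IZ replicate 1 as an open diamond. The 9 genes other than Msr1 lie lower in the IZ, past the threshold after adjustment, as do 95.1% of all tested genes, whereas the means of Msr1 are -6.33 and -6.41.

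Relative to 5 fibroblast markers, 7 of the 10 ratios fell, but the direction depended on Col1a1, which made up 82.0% of that sum in the IZ. With Col1a1 left out none fell, and the differences of 8 genes changed sign, from -0.24 to 1.79 for Mertk and from -1.10 to 0.94 for Axl, for example. No direction relative to fibroblasts is therefore given. Within the IZ, 30 relations between the 10 genes and the macrophage, fibroblast or cardiomyocyte sums were tested over the 9 libraries by exact permutation of all 362880 pairings, and none passed the threshold after adjustment. Before adjustment 8 had a p below 0.05 by Pearson's r and 1 by Spearman's rho.

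The closest relation by rank joined Mertk to the macrophage markers, with Pearson r = 0.73 (exact permutation p = 0.021, adjusted p = 0.105) and Spearman rho = 0.80 (exact permutation p = 0.0138, adjusted p = 0.415). Without replicates 1 and 8, the libraries farthest from the median, r was 0.76 (exact permutation p = 0.0433, adjusted p = 0.5499). The highest r by size joined Msr1 to the cardiomyocyte markers, at -0.90 (exact permutation p = 0.018, adjusted p = 0.105) with rho = -0.58 (exact permutation p = 0.108, adjusted p = 0.708). It was -0.40 without replicates 1 and 4, so that it rested on those libraries.

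The other genes of efferocytosis were taken as 8 lists of 110 genes, given by counts beside the 36.3% of all tested genes called higher. Some tested genes had so few sham counts that they passed the filter on low counts only through the IZ. They could hardly be called lower, and the counts of genes that rose include them. Among other receptors for dying cells 16 of 24 were tested, of which 12 rose and 3 fell, with a median log2 fold change of 2.67, or 2.17 with genes of 3 counts or fewer in every sham library set to that floor. The count of 3 that fell was 1 under total counts alone and also 1 without IZ replicate 2, where Cd163 was no longer tested and Scarf1 lost its call. Scarf1 (log2 fold change -0.51) lost its call in 11 of the 17 omissions of a library. It was also not called under upper quartile scaling or without the filter on low counts. Under total counts alone Scarf1 was called higher (0.57, edgeR adjusted p = 0.0213). Cd300lf, a lipid-binding receptor of myeloid cells, never exceeded 2 counts in a sham library and reached 10.5 to 49.4 CPM in the IZ. Its relative Cd300lb went from 0.476 ± 0.897 to 12.9 ± 5.28 CPM (edgeR, adjusted p = 3.53e-08). Cd36, the fatty acid translocase that is also abundant in heart muscle, went from 1188 ± 86.4 to 238 ± 83.9 CPM (log2 fold change -2.32, edgeR adjusted p = 8.12e-11) and was lower under every scaling. Cd163, the haemoglobin scavenger receptor, went from 9.46 ± 3.73 to 3.72 ± 3.66 CPM (log2 fold change -1.09, edgeR adjusted p = 0.0222), against a log2 fold change of 0.0020 (edgeR, adjusted p = 0.995) with total counts alone.

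All 12 tested of the 18 other bridging molecules and opsonins rose, with a median of 2.67. Lgals3, galectin-3, went from 24.1 ± 9.02 to 1022 ± 339 CPM (log2 fold change 5.42, edgeR adjusted p = 2.13e-12), and Thbs1, thrombospondin-1, from 20.4 ± 7.75 to 258 ± 115 CPM (3.68, edgeR adjusted p = 1.32e-10). The smallest changes were those of the complement genes C3 (0.51, edgeR adjusted p = 0.00729) and C4b (0.77, edgeR adjusted p = 0.00366).

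Of the engulfment machinery 14 of 17 genes were tested, 10 rose and none fell, with a median of 0.91. Vav1, a RAC activator of blood cells, went from 2.25 ± 1.42 to 40.1 ± 10.98 CPM (log2 fold change 4.10, edgeR adjusted p = 1.25e-11) and Dock2, also known from blood cells, from 2.19 ± 1.24 to 21.8 ± 5.18 CPM (3.32, edgeR adjusted p = 1.68e-10). Dock1, the classical partner of ELMO1, had 22.5 ± 7.02 and 25.2 ± 2.68 CPM (0.17, edgeR adjusted p = 0.355), and the exchange factor Trio had 23.6 ± 5.07 and 26.2 ± 4.25 CPM (0.16, edgeR adjusted p = 0.31).

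All 7 genes of receptor shedding, ligand carboxylation and TAM feedback were tested and 6 rose, with a median of 0.95, but 4 to 6 did with single libraries omitted. Socs3, a suppressor of cytokine signalling, rose by 2.01 (edgeR, adjusted p = 6.93e-06) and Vkorc1, which recycles the vitamin K needed to carboxylate GAS6 and protein S, by 1.99 (edgeR, adjusted p = 6.56e-10). Ggcx, the carboxylase itself, had 10.4 ± 1.52 and 12.2 ± 3.15 CPM (0.23, edgeR adjusted p = 0.2501), and Lrpap1, the chaperone of LRP1, rose by 0.27 (edgeR, adjusted p = 0.0338), a call lost without sham replicate 1, 3, 4, 6 or 7 or IZ replicate 1. Of the 6, Socs1 (0.95) also lost its call without sham replicate 1, 3, 4, 7 or 8. All 6 tested of 8 genes for signals against engulfment also rose, with a median of 2.48. The inhibitory receptor Pirb rose by 4.35 (edgeR, adjusted p = 6.92e-13), the phosphatase Ptpn6 by 3.28 (edgeR, adjusted p = 1.08e-11), Qpctl, which modifies CD47, by 1.27 (edgeR, adjusted p = 1.04e-04) and Cd47, the "don't eat me" protein, by 0.66 (edgeR, adjusted p = 4.44e-06).

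All 8 genes of find-me signals and their receptors were tested, 5 rose and 1 fell, with a median of 2.04, or 1.30 with 1 gene at the floor. The sphingosine kinase Sphk1 and the nucleotide channel Panx1 each rose by 2.84 (edgeR, adjusted p = 3.03e-07 and 1.25e-08). P2ry2, a receptor for released nucleotides, fell by 1.23 (edgeR, adjusted p = 1.03e-04) and by 0.18 without a call under total counts alone, and S1pr1 had a log2 fold change of -0.25 (edgeR, adjusted p = 0.216). Of 7 tested genes for phosphatidylserine exposure 2 rose, among them the scramblase Ano6 by 1.10 (edgeR, adjusted p = 6.40e-08). The flippase Atp11a fell by 0.86 (edgeR, adjusted p = 2.98e-07), with 0.23 and no call under total counts alone, and its partner Tmem30a had 0.15 (edgeR, adjusted p = 0.234). The median of this list was 0.19.

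Of 20 genes of phagosome digestion and cholesterol efflux 18 were tested, 10 rose and 3 fell (none under total counts alone), with a median of 0.56. The third that fell, Ppard, lost its call with 12 of the 17 libraries left out in turn and held it without sham replicate 1, 2 or 6 or IZ replicate 1 or 7. Ppard was not called under upper quartile scaling (-0.34, edgeR adjusted p = 0.135) and was called higher under total counts alone (0.65, edgeR adjusted p = 0.00742). The cholesterol exporter Abcg1 rose by 2.93 (edgeR, adjusted p = 6.08e-11) and the lysosomal nucleoside transporter Slc29a3 by 2.43 (edgeR, adjusted p = 1.06e-10). Rubcn, a regulator of LC3-associated phagocytosis, fell by 0.51 (edgeR, adjusted p = 0.0141) and the nuclear receptor Rxra by 0.48 (edgeR, adjusted p = 0.00414), but both were called higher under total counts alone (0.56 and 0.61), where the median of all genes was itself 1.14.

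Low counts kept some listed genes out of the test. Those were Timd4, Havcr1, Adgrb1, Stab2, Ager, Olr1 and Marco among the receptors, Edil3, Tub, Tulp1, Sftpd, Mbl2 and Apoh among the bridging molecules, Elmo3, Crkl and Was, and Siglecg, Xkr8, Alox5 and Alox15. Timd4, the phosphatidylserine receptor of resident macrophages, had a mean of 2.17 CPM in sham and 0.345 CPM in the IZ, with no test. Itgam and Lilrb4a lacked a separate feature and were not analysed here.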

How the data were processed

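RNA of sham left ventricle (n = 8) and infarct zone (n = 9) was sequenced from 3' ends. The authors trimmed reads with Cutadapt, mapped them to mm10 and counted them per gene with HTSeq, and the submitters' processing notes also name Bowtie2, bcl2fastq and DESeq2. The deposited values are raw counts per gene without normalization. The annotation release and the treatment of reads with several locations were not given in the sources used here.

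From these counts, edgeR 4.0.16 (R 4.3.3) was run across genes (filterByExpr with a minimum count of 10, TMM factors 0.613 to 1.54, two-sided quasi-likelihood test, Benjamini-Hochberg adjustment, threshold 0.05). SEs were derived from the F statistic. Merged features (35) were kept unnamed. Depth was 1237675 to 4738307 counts per library, and few counts of Mertk, Tyro3, Msr1 and Elmo1 in sham limit their precision. Pairs of libraries differed beyond sampling (chi-square per degree of freedom 2.41 to 252), so none was a copy. Groups followed the labels, and each library was 1 mouse. Symbols and overlaps came from GENCODE vM21, and promoters from RefSeq. Ratios used counts plus 0.5. Exact permutations and plots used Python 3.11.15, NumPy 2.4.6, pandas 2.3.3, SciPy 1.17.1 and Matplotlib 3.10.9. Scripts were tested on simulated data.

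The 10 genes and all lists were chosen with earlier results of these data known. In each list the 2 highest and 2 lowest log2 fold changes at a mean of 5 CPM or more were named, apart from 1 gene not reported here, Timd4, Scarf1, Socs1 and Ppard being added after their values were seen. The alternatives comprised scaling by upper quartiles, by DESeq2 size factors or by total counts alone, DESeq2 1.42.0 (Wald test), no filter, a minimum mean of 50 counts, no mitochondrial features, thinning to the smallest total, the replicate number as a block, other pseudocounts and medians for ratios, and the omission of each library.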

Additional observations from a re-analysis of the deposited data

Results flagged for a closer look

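Of 52 groups of values checked, 12 held a library far from the others of its group, and chance marks about 1 group in 20.

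In sham, replicate 8 was high in Gas6 (186.6 CPM, others 84.7 to 118 CPM). Replicate 3 was high in Stab1 (113.2 CPM, others 52.8 to 77.4 CPM), Lrp1 (159.9 CPM, others 90.9 to 121.5 CPM) and the macrophage marker sum (422 CPM, others 273.5 to 327 CPM). Replicate 6, with 1 count of Mertk, was high in the log2 ratios of Axl to Mertk (5.24, others 2.09 to 2.98) and of Lrp1 to Mertk (6.57, others 3.32 to 4.11). Replicate 5 had the highest adipocyte marker sum (6.21 CPM, others up to 2.94 CPM).

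In the infarct zone, replicate 1 was low in Tyro3 (5.44 CPM, others 10.7 to 14.5 CPM) and in the log2 ratio of Msr1 to Stab1 (-4.59, others -3.11 to -1.75). The same library was high in cardiomyocyte markers (18160 CPM, others 2080 to 4851 CPM) and mural markers (371 CPM, others 143 to 247 CPM). Replicate 2 had the highest adipocyte marker sum (41.6 CPM, others up to 14.1 CPM). What sets these libraries apart was not tested.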

How the results depend on the processing

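All 10 genes stayed called higher in each alternative that tested them (26 each, and 25 for Tyro3 and Elmo1, which fell under the minimum mean of 50 counts). With total counts alone the median of all genes was 1.14 and 85.8% of calls were higher, against 52.3% with TMM, and with upper quartile scaling that median was 0.17. A minimum mean of 50 counts gave 5239 called genes of 6734 tested, against 8544 of 12301, as fewer genes were tested. Replicate numbers did not pair the libraries: correlations of same-numbered deviations ran from -0.31 to 0.198, 1 of 8 pairs was above 0.1, and 1 sham library correlated best with its own number. The replicate block gave 8079 calls and ended the calls of Lrpap1, Socs1 and Ppard. For ratios it flipped the signs of the differences of the 8 same-numbered pairs, which left out the IZ library without a sham partner. By this exact sign-flip test the Axl to Mertk ratio (-0.80, sign-flip adjusted p = 0.11) and the Mfge8 to Gas6 ratio (0.30) lost their calls. The Mfge8 to Gas6 ratio also missed the threshold with a pseudocount of 0.1 (0.34) and with medians (0.41), and with single libraries omitted it ran from 0.27 to 0.42. The Mertk to Tyro3 ratio ran from -0.83 to -0.41 with single libraries omitted. Leaving Col1a1 out of the fibroblast list, added after seeing the data as was leaving out Lyz2, gave 0 genes with a lower ratio and turned those of Mertk (1.79), Axl (0.94), Gas6 (0.15), Pros1 (0.65), Mfge8 (0.49), Stab1 (1.57), Lrp1 (1.48) and Elmo1 (0.86). The causes were not tested where none is stated. At 1 to 6 counts per sham library, the fold change of Tyro3 is imprecise.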
